A study of Mus musculus with 15 samples.

Results

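The ventral part of the dorsal aorta was compared with the urogenital ridges in C57BL/6 mouse embryos at E10.5, that is, in mid-gestation. The comparison rests on 3 RNA-seq libraries of the ventral aortic tissue (E10 AoV) and 3 of the urogenital ridges (E10 UGR), out of 15 libraries in all. Genes entered where at least 1 of the 6 libraries reached 0.5 RPM (reads per 1000000 reads), which 17784 of the 28876 genes in the table did. Both tissues were cut by hand from the aorta-gonad-mesonephros (AGM) region of unmanipulated embryos, and each library is a pool of tissue from between 15 and 34 embryos, collected in 3 separate experiments. The other 9 libraries hold the dorsal aortic tissue of the same day and the dorsal and ventral aortic tissue of E9.5. The study used the series to look for signals that differ between AGM subdomains with different capacity to support hematopoietic stem cells. The replicates are tissue pools and not sorted cells, so in every comparison fewer cells of a type and less RNA per cell cannot be told apart.

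The AGM region is where definitive hematopoietic stem cells first appear in the mouse embryo. The dorsal aorta runs along its midline, and clusters of blood cells bud from the endothelium of its ventral wall into the lumen, above a layer of mesenchyme that borders the root of the gut. The urogenital ridges lie on both sides and hold the nephric duct, the tubules of the mesonephros, and the coelomic epithelium that gives rise to the gonads and the adrenal cortex.

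Library depth was 33750000 to 48640000 reads, so that 3 reads of a gene correspond to 0.0617 to 0.0889 RPM, and 16818 to 16984 genes per library reached 0.5 RPM. Replicates of a group correlated across genes at r = 0.995 to 0.997, and libraries of different groups at 0.971 to 0.976. The labelled tissues were read against their markers. Summed nephric duct and mesonephros markers (29 genes) lay at 1325 to 1346 RPM in E10 UGR and at 449 to 499 RPM in E10 AoV, so the markers that define the ridges were highest there but were also read in the ventral aortic pools. In the dorsal aortic tissue of the same day the same sum was 307 to 347 RPM. Endothelial markers (24 genes) summed to 1424 to 1514 RPM in E10 AoV and to 1002 to 1064 RPM in E10 UGR, so both tissues contained vessels. Red cell genes (16 genes) overlapped between the tissues at 6644 to 12625 and 6583 to 10343 RPM.

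A gene was called higher or lower where its adjusted p in limma was below 0.05 and its change was at least 2-fold. Fold changes are given as log2 of E10 AoV over E10 UGR on the scale log2(RPM + 0.1), so that a positive value means higher in the ventral aortic tissue, and they understate the change of genes near 0.1 RPM. On this rule 690 genes were higher in E10 AoV (3.88% of those tested) and 666 were lower (3.74%), 7.62% together. The values of all 3 libraries of a group lay outside the range of the other group for 1354 of these 1356 genes, against 49.5% of all genes tested. Without the fold limit 2274 genes were higher and 3070 lower, 30.0% of those tested. The median log2 fold change over all genes was -0.05, and the medians given below for gene lists are to be set beside it. Counts of called list members are likewise to be set beside the 3.88% higher and 3.74% lower among all genes tested.

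The higher and lower genes were close in number but not in level. Among the genes higher in E10 AoV, 46 had a mean of at least 100 RPM in the higher tissue, whereas 7 of the genes lower in E10 AoV did. A log2 fold change of at least 4 in size was found for 16 genes higher and 0 genes lower in E10 AoV, and a change of at least 3 for 53 higher and 27 lower genes. Protein-coding genes made up 638 of the higher and 622 of the lower genes.

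**Figure D1:**
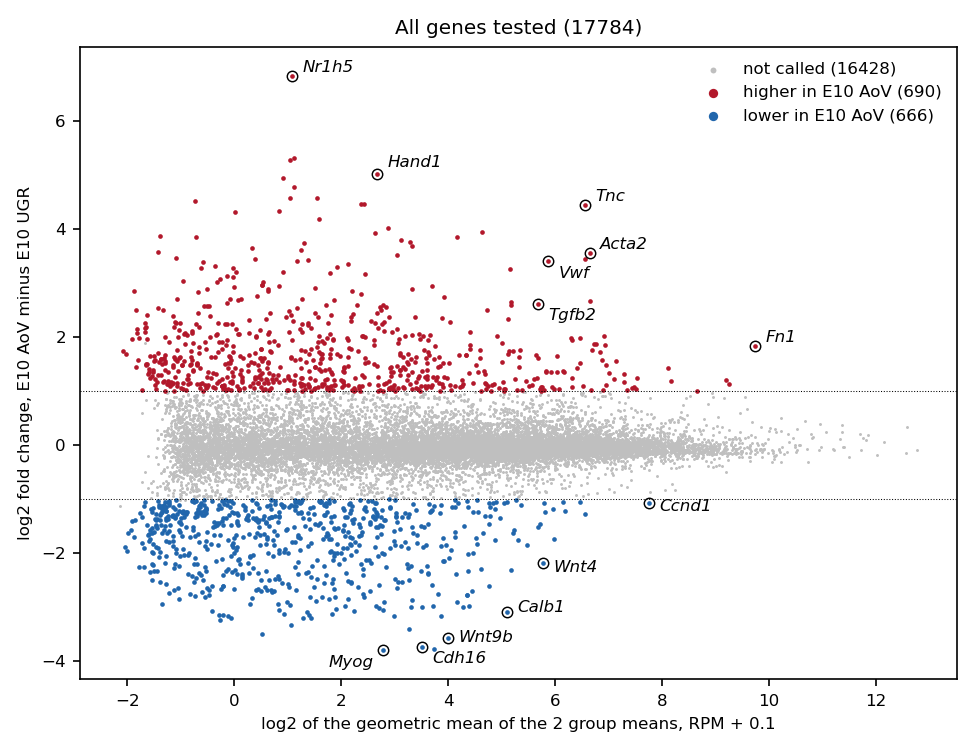
Each of the 17784 genes tested is a point, with the log2 of its geometric mean level in the 2 tissues (RPM + 0.1) on the horizontal axis and its log2 fold change, E10 AoV over E10 UGR, on the vertical axis. The 690 genes higher in E10 AoV are red, the 666 lower are blue, and dotted lines mark a 2-fold change. The upper right of the cloud holds more colored genes than the lower right.

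The genes with the largest changes toward the ventral aortic tissue included transcription factors of the mesenchyme around the gut and contractile genes of smooth muscle. Hand1, a basic helix-loop-helix factor of lateral plate mesoderm (chr11:57642207-57646320, minus strand, here and below on NCBIM37), stood at 34.6, 34.5 and 40.2 RPM in the 3 E10 AoV libraries and at 1.04, 0.966 and 1.04 RPM in E10 UGR (log2 fold change 5.03 with SE 0.31 and adjusted p = 2.12e-08). The forkhead factor Foxf1a, which is needed for the mesenchyme of the gut wall, was at 10.6, 11.6 and 11.5 RPM against 0.444, 0.288 and 0.225 RPM (log2 fold change 4.79 with SE 0.25 and adjusted p = 5.31e-09). Mab21l2, required in the embryo for eye and body wall formation, was at 12.3, 13.8 and 14.7 RPM against 0.237, 0.185 and 0.31 RPM (log2 fold change 5.33), although an exon of Lrba overlaps it and the reads do not carry strand. All 3 genes were at about 1 RPM or less in the ridges. They did not overlap between tissues, which was required of the genes ranked by change.

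The largest value belonged to Nr1h5, which encodes the nuclear receptor FXR-beta (chr3:102743581-102768056, minus strand), at 23.7, 23.8 and 18.1 RPM in E10 AoV and at 0.0296, 0.0617 and 0.225 RPM in E10 UGR (log2 fold change 6.85 with SE 0.54 and adjusted p = 2.47e-07), where the first 2 ridge values are at or below 3 reads. The adhesion molecule Dscam was at 11.8, 13.4 and 13.3 RPM against 0.207, 0.206 and 0.282 RPM (log2 fold change 5.29). Gpr50, an orphan receptor related to the melatonin receptors, had a log2 fold change of 4.94, and Popdc2, a cyclic AMP-binding membrane protein of muscle whose exons overlap those of Cox17, of 4.47. Tnc, the matrix protein tenascin-C (chr4:63620819-63681760, minus strand), combined a large change with a high level, at 425, 476 and 414 RPM in E10 AoV and at 20, 20.4 and 19.6 RPM in E10 UGR (log2 fold change 4.44 with SE 0.21 and adjusted p = 2.85e-09). An exon of 8030451A03Rik overlaps it.

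Toward the ridges, the largest changes included epithelial genes of the nephric duct. Cldn8, a tight junction protein of kidney tubules (chr16:88561073-88563428, minus strand), was at 4.28, 3.17 and 3.1 RPM in E10 AoV and at 50.9, 51.2 and 45.5 RPM in E10 UGR (log2 fold change -3.78 with SE 0.22 and adjusted p = 1.18e-08). Cdh16, the kidney-specific cadherin (chr8:107125813-107148296, minus strand), was at 3.29, 3.12 and 2.68 RPM against 40.1, 43.9 and 40 RPM (log2 fold change -3.73 with SE 0.35 and adjusted p = 1.27e-06). The ligand Wnt9b, which the duct secretes to induce tubules, was at 5.21, 3.79 and 4.61 RPM against 52.3, 59 and 52.9 RPM (log2 fold change -3.57 with SE 0.31 and adjusted p = 6.60e-07). The values within each tissue lay close together and the tissues were far apart in all 3 genes. Myog, a muscle regulatory factor, had the largest change in this direction among genes of at least 5 RPM (-3.80), but its ridge values of 26.1, 39 and 14 RPM were scattered.

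**Figure D2:**
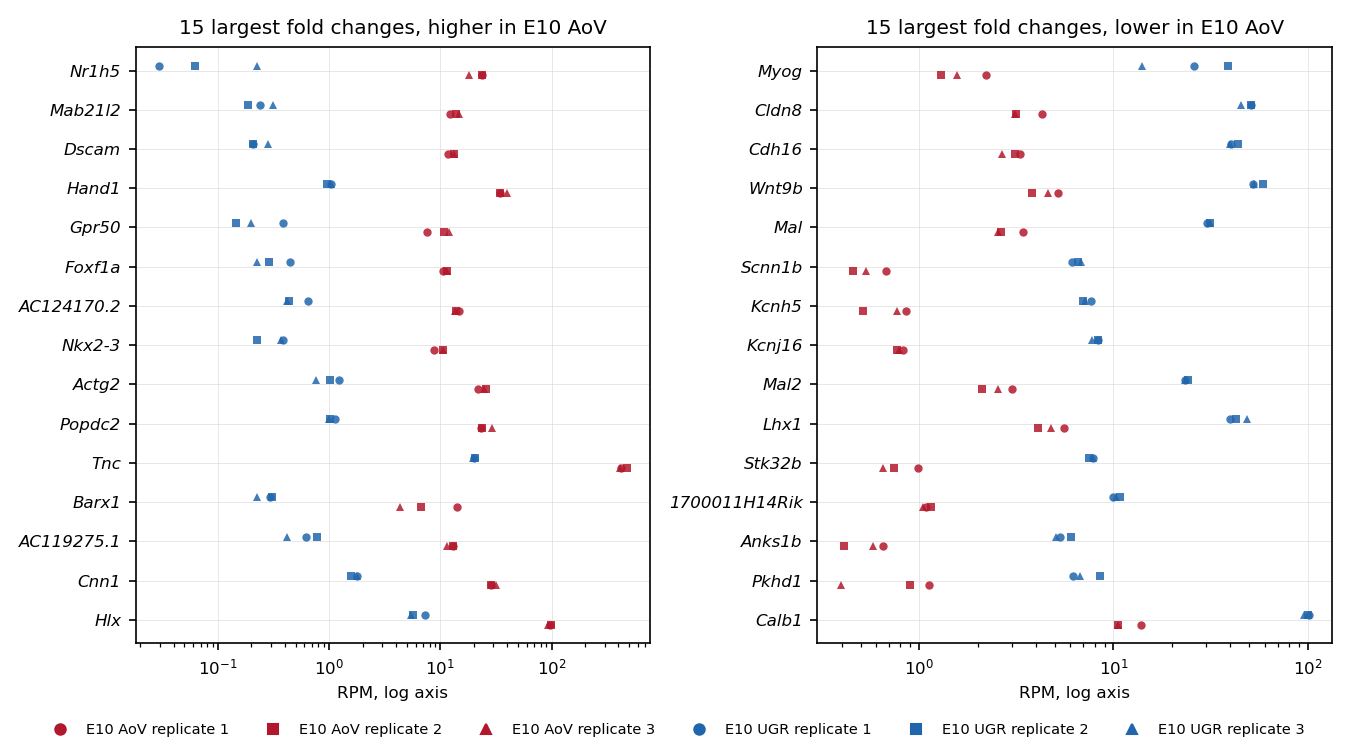
RPM of each library on a log axis for the 15 genes with the largest fold changes in each direction among called genes with at least 5 RPM in the higher tissue and no overlap. E10 AoV libraries are red and E10 UGR libraries blue, with a circle, square and triangle for replicates 1, 2 and 3. Most genes show tight triplets far apart, while Barx1 spreads in E10 AoV and Myog spreads in E10 UGR.

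Nephric duct and mesonephros genes were mostly lower in E10 AoV. Of 29 tested, 0 were higher and 22 lower in E10 AoV, with a median log2 fold change of -2.03. Among the transcription factors 10 of 12 were lower. Lhx1, the LIM factor that specifies the duct, was at 5.55, 4.09 and 4.77 RPM in E10 AoV and at 39.6, 42.8 and 48.6 RPM in E10 UGR (log2 fold change -3.16 with SE 0.25 and adjusted p = 2.25e-07). The paired-box factors Pax2 and Pax8, which together start the nephric lineage, had log2 fold changes of -2.59 and -2.78. Sim1 and Pou3f3 also fell by 2.99 and 2.97 on the log2 scale. Gata3, a regulator of duct guidance, changed less (21.3, 19 and 18.2 against 41.1, 40.9 and 41.4 RPM, log2 fold change -1.08).

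The signals of the same lineage were lower in E10 AoV for 5 of 8 members. Ret, the receptor tyrosine kinase of the duct, was at 15.5, 14 and 12 RPM against 30.2, 31.5 and 29.5 RPM (log2 fold change -1.14), and its co-receptor Gfra1 had a log2 fold change of -1.84. Their ligand Gdnf, made by the mesenchyme beside the duct, was low in both tissues at 2.39, 1.74 and 2.03 and 3.02, 1.97 and 2.99 RPM and was not called (log2 fold change -0.34, adjusted p = 0.295). Wnt4, which drives the mesenchyme into tubules, was at 28.1, 27.6 and 20.9 RPM in E10 AoV and at 111, 123 and 113 RPM in E10 UGR (log2 fold change -2.19 with SE 0.14 and adjusted p = 3.72e-08).

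Epithelial products were lower for 7 of 9 members. Calb1, the calcium-binding protein calbindin, was at 11.7 ± 1.93 RPM in E10 AoV and at 98.8 ± 2.93 RPM in E10 UGR (SD, n = 3, log2 fold change -3.08 with SE 0.30 and adjusted p = 1.74e-06), and the apical polarity gene Crb3 and the epithelial adhesion genes Cdh1 and Epcam had log2 fold changes of -3.03, -2.60 and -2.29. The keratins Krt8 and Krt18, found in simple epithelia generally, did not pass the test (log2 fold change 0.17 and 0.17). Osr1 and Six2, factors of intermediate mesoderm and of nephron progenitors, were likewise not called, at 0.31 and -0.40.

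Genes of transport epithelia that were on no list stood among the 15 largest changes toward the ridges. Mal, a proteolipid of apical membrane traffic, was at 3.42, 2.63 and 2.56 RPM in E10 AoV and at 30.3, 31.4 and 31.5 RPM in E10 UGR (log2 fold change -3.40), and its relative Mal2 had a log2 fold change of -3.17. Scnn1b, a subunit of the epithelial sodium channel, was at 0.675, 0.46 and 0.536 RPM against 6.1, 6.54 and 6.79 RPM (-3.33), and the inward rectifier potassium channel Kcnj16 had a log2 fold change of -3.20. Claudins, which seal and tune the permeability of tight junctions, were lower for 8 of 12 members with 0 higher (median -2.40), and Cldn6, Cldn19 and Cldn4 had log2 fold changes of -2.98, -2.93 and -2.84. Cldn5, the claudin of endothelium, did not pass the test (50.8, 52.7 and 52.3 against 51.1, 46.4 and 46.5 RPM, log2 fold change 0.11). The 19 cadherins were divided, with 4 higher and 5 lower (median 0.57). Cdh11, the cadherin of mesenchyme, was at 283, 292 and 273 RPM against 129, 123 and 108 RPM (log2 fold change 1.24), and Cdh9 and Cdh18 rose by 2.25 and 1.95.

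Pkhd1, which encodes the ciliary protein fibrocystin, was at 1.12, 0.895 and 0.396 RPM in E10 AoV and at 6.19, 8.51 and 6.7 RPM in E10 UGR (log2 fold change -3.09 with SE 0.28 and adjusted p = 9.22e-07), with an exon of 4930486I03Rik overlapping it. Hnf4a, a nuclear receptor of kidney, liver and gut epithelium, was at 0.415, 0.512 and 0.466 RPM against 2.55, 2.67 and 2.14 RPM (log2 fold change -2.18 with SE 0.62 and adjusted p = 0.0151). No E10 AoV library reached the range of the ridges in either gene, but ranges did not overlap for 1354 of the 1356 called genes.

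Gonadal and adrenal genes fell on both sides. Of 20 genes of the adrenogonadal primordium and coelomic epithelium, 4 were higher and 2 lower in E10 AoV, with a median of 0.03. The highest contrast was in the GATA factors that start the gonadal ridge. Gata4 was at 216, 236 and 248 RPM in E10 AoV and at 64.9, 57.8 and 69.4 RPM in E10 UGR (log2 fold change 1.87 with SE 0.35 and adjusted p = 7.94e-04), and Gata6 at 193, 205 and 209 against 72, 61.5 and 69 RPM (log2 fold change 1.58 with SE 0.16 and adjusted p = 3.63e-06). Their cofactor Zfpm2 and the LIM factor Lhx9 had log2 fold changes of 1.05 and 1.09, and Zfpm2 was under the fold limit, at 0.98, without E10 AoV replicate 2. These genes are also active in the mesenchyme of the gut and heart.

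GATA factors bind DNA through a short motif, searched here as AGATAA. The 250 bases before the start of Gdf2 and Hand2, from RefSeq on GRCm38.p6, are shown because both genes, whose values are given with their groups, were higher in E10 AoV as Gata4 and Gata6 were, and they were picked after the matches had been seen. Capitals mark AGATAA or its reverse complement TTATCT. The Gdf2 window, chr14:33940789-33941038 on the plus strand, holds 2 matches, which begin 75 and 43 bases before the start, and the Hand2 window, chr8:57320733-57320982 on the plus strand, holds 1, at 172 bases before it. Among all promoters of tested genes in that table, 6.05% (866 of 14319) hold the motif on either strand in the 250 bases before the start. Other motifs searched in the same way included AAGGTCA for Nr5a1, in 2.93% of promoters, CAGCTG for the E-box, in 12.5%, TGTTTAC for forkhead factors, in 2.14%, and ATGCAAA for the octamer, in 3.25%. The matches are letters in a sequence and say nothing of binding here.
Gdf2: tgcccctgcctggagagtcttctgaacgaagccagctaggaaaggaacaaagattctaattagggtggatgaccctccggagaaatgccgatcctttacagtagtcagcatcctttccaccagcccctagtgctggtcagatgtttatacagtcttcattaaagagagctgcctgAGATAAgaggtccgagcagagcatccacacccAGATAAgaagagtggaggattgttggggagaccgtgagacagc
Hand2: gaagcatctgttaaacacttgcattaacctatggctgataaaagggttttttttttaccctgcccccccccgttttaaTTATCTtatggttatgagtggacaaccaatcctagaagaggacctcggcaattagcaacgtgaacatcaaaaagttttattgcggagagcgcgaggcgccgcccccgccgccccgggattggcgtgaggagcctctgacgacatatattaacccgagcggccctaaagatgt

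Nr5a1, the nuclear receptor that defines the adrenogonadal lineage, was at 66.3, 69 and 62.2 RPM in E10 AoV and at 75.4, 72 and 83.4 RPM in E10 UGR, and the difference did not pass the test (log2 fold change -0.22, adjusted p = 0.611). Wt1, the zinc finger factor of the coelomic lining, was at 231, 234 and 214 against 382, 350 and 379 RPM, a difference that passed on p but stayed under 2-fold (log2 fold change -0.71 with SE 0.24 and adjusted p = 0.0357). Nr0b1, a nuclear receptor of the adrenal and gonad, was lower in E10 AoV (log2 fold change -1.57). Of 9 steroid-synthesis genes tested, 1 was higher and 0 lower in E10 AoV (median -0.07). That gene was Hsd3b1, at 3.71, 3.83 and 2.91 against 1.54, 1.4 and 1.6 RPM, while Star, the carrier of cholesterol into mitochondria, was at 5.24, 5.19 and 4.75 against 5.98, 6.23 and 5.63 RPM and was not called.

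Germ cell genes were on the side of the ventral aortic tissue. Of 17 tested, 12 were higher and 0 lower in E10 AoV, with a median of 1.52, and the summed level was 77.2 to 84.1 RPM against 37.1 to 39.2 RPM. Pou5f1, the pluripotency factor that primordial germ cells retain, was at 13.8, 14.8 and 15.6 RPM in E10 AoV and at 2.52, 2.86 and 2.51 RPM in E10 UGR (log2 fold change 2.44 with SE 0.38 and adjusted p = 1.74e-04). Dppa3, which protects DNA methylation marks in the egg, was at 4.05, 4.76 and 5.15 against 1.07, 0.732 and 0.627 RPM (log2 fold change 2.41), and Prdm14, a germ cell specification factor, at 1.22, 1.05 and 1.3 against 0.119, 0.329 and 0.113 RPM (2.24). Dppa5a rose by 2.37, with reads that related copies in the genome can share. Among other members of the list, Ddx4 was at 1.5, 2 and 1.3 against 1.01, 1.13 and 1.07 RPM and Nanos3 at 0.934, 0.563 and 0.629 against 0.622, 0.637 and 0.732 RPM, neither of them called. Dazl and Mael were below the level filter. Sall4, which other embryonic cells also express, did not pass the test (0.02).

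Smooth muscle genes that changed were higher in the ventral aortic tissue. Of 17 smooth muscle and pericyte genes, 10 were higher, 0 lower and 7 not called, with a median of 1.08 and summed levels of 1653 to 1687 RPM against 673 to 732 RPM. Among the contractile genes 6 of 9 were higher. Acta2, smooth muscle actin (chr19:34315580-34329826, minus strand), was at 317, 333 and 361 RPM in E10 AoV and at 34.1, 36.8 and 18.5 RPM in E10 UGR (log2 fold change 3.56 with SE 0.24 and adjusted p = 5.05e-08). Tagln, an actin-bundling protein, was at 298, 292 and 335 against 33.9, 27.1 and 24 RPM (log2 fold change 3.45 with SE 0.20 and adjusted p = 1.17e-08), and Myh11, the smooth muscle myosin heavy chain, at 23.8, 28 and 19.9 against 1.76, 1.59 and 1.1 RPM (log2 fold change 3.93 with SE 0.26 and adjusted p = 4.19e-08). Cnn1 and Actg2 had log2 fold changes of 4.03 and 4.48. The ridge values were low in every library and lowest for Acta2 in replicate 3.

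Myocd, the co-activator that switches on the smooth muscle program, was at 6.18, 6.69 and 5.52 RPM against 4.98, 5.84 and 4.76 RPM and was not called, as was Mylk, myosin light chain kinase (-0.17). Pericyte surface genes were divided. The proteoglycan gene Cspg4 was at 33.5, 39.9 and 26.4 against 12.7, 14.2 and 11.9 RPM (1.34) and the adhesion molecule Mcam at 88.5, 88.7 and 90.6 against 44.3, 39.8 and 42.6 RPM (1.08), while the receptor Pdgfrb, at 126, 126 and 114 against 104, 114 and 90.4 RPM, did not pass the test.

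Some genes of the matrix and the cytoskeleton were higher in E10 AoV (RPM is not scaled to gene length, so levels of different genes are not compared). Fn1, fibronectin, was at 1610, 1770 and 1470 RPM in E10 AoV and at 458, 502 and 401 RPM in E10 UGR (log2 fold change 1.83 with SE 0.13 and adjusted p = 9.58e-08), with an exon of Apol7d overlapping it. The intermediate filament gene Vim was at 912, 854 and 900 against 394, 385 and 373 RPM (log2 fold change 1.21), and the proteoglycan gene Vcan at 587, 649 and 475 against 280, 330 and 242 RPM, close to the fold limit (1.01, and 0.91 without E10 AoV replicate 2, 0.98 without replicate 1 and 0.90 without ridge replicate 3). Of 37 collagen genes 10 were higher and 1 was lower (median 0.36). Col1a1, a chain of type I collagen overlapped by Gm17329, was at 454, 481 and 424 against 172, 180 and 153 RPM (log2 fold change 1.43 with SE 0.17 and adjusted p = 1.57e-05), and Col3a1 of type III at 857, 904 and 956 against 420, 441 and 379 RPM (1.13). Col8a1, Col12a1 and Col5a3 had larger changes from lower levels (3.35, 2.66 and 2.28). The basement membrane chains Col4a1 and Col18a1 were not called (0.36 and -0.03), and Col19a1, a minor collagen of muscle, was lower (-1.38).

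Factors of gut mesenchyme and the spleen primordium were higher for 7 of 10 members and lower for 2, with a median of 3.13. Hlx, a homeobox gene of the mesenchyme of gut and liver (chr1:186551019-186556498, minus strand), was at 96.8, 99.2 and 93.7 RPM in E10 AoV and at 7.35, 5.72 and 5.46 RPM in E10 UGR (log2 fold change 3.96 with SE 0.18 and adjusted p = 2.13e-09). Nkx2-3, which patterns spleen and intestine, was at 9.92 ± 0.999 against 0.326 ± 0.0868 RPM (SD, n = 3, log2 fold change 4.57 with SE 0.22 and adjusted p = 3.20e-09). Barx1, the homeobox gene of stomach mesenchyme, did not overlap but varied widely within E10 AoV, at 14.2, 6.7 and 4.33 RPM against 0.296, 0.308 and 0.225 RPM (log2 fold change 4.33 with SE 0.69 and adjusted p = 2.21e-04). Tbx2 and Tbx3, T-box repressors active in many tissues, were the lower members, at 18.2, 16 and 14.1 against 81.6, 89.1 and 68.6 RPM for Tbx3 (log2 fold change -2.30 with SE 0.14 and adjusted p = 2.90e-08).

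Genes of gut endoderm were low. Of 17 endoderm and liver genes in the list 8 passed the level filter, and of these 2 were higher and 2 lower (median 0.08). Cdx2, the intestinal homeobox gene, was at 0.752, 1.15 and 0.582 RPM against 0, 0.0617 and 0.141 RPM (log2 fold change 2.51), and Foxa1 was below 1 RPM in both tissues (1.06, and 0.91 without E10 AoV replicate 2 or 0.89 without ridge replicate 3, so no longer called). Afp and Alb, the main plasma proteins of yolk sac and liver, were under 1 RPM on average in both and were not called. Cdx1 was lower (-1.47), as was Hnf4a above.

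In the list of sympathetic, adrenal medulla and neural crest genes, 5 of 24 were higher and 4 lower in E10 AoV (median 0.16). The higher members included Hand1 above, Hand2 at 89, 89.3 and 89.1 against 15.2, 14.5 and 14.1 RPM (log2 fold change 2.60 with SE 0.14 and adjusted p = 7.12e-09) and Isl1, a LIM factor of several mesenchymal and neural lineages, at 66.9, 67.6 and 69.9 against 4.5, 3.74 and 5.77 RPM (log2 fold change 3.86 with SE 0.14 and adjusted p = 2.20e-10). Hand1, Hand2 and Isl1 are also active in lateral mesoderm. Ddc, the enzyme that makes dopamine from its precursor, was at 26.2, 25 and 25.1 against 6.31, 6.52 and 5.43 RPM (2.05). The catecholamine enzymes Th and Dbh were not called (0.55 and 0.53). The neural crest and glial genes Tcfap2b, Erbb3, Foxd3 and Sox10 were lower (-1.86, -1.69, -1.23 and -1.19). Ednrb, a crest gene of the same list, went the other way but stayed under 2-fold. It was at 25.5, 29.8 and 23.4 against 15.9, 15.3 and 12.8 RPM (0.83).

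**Figure D3:**
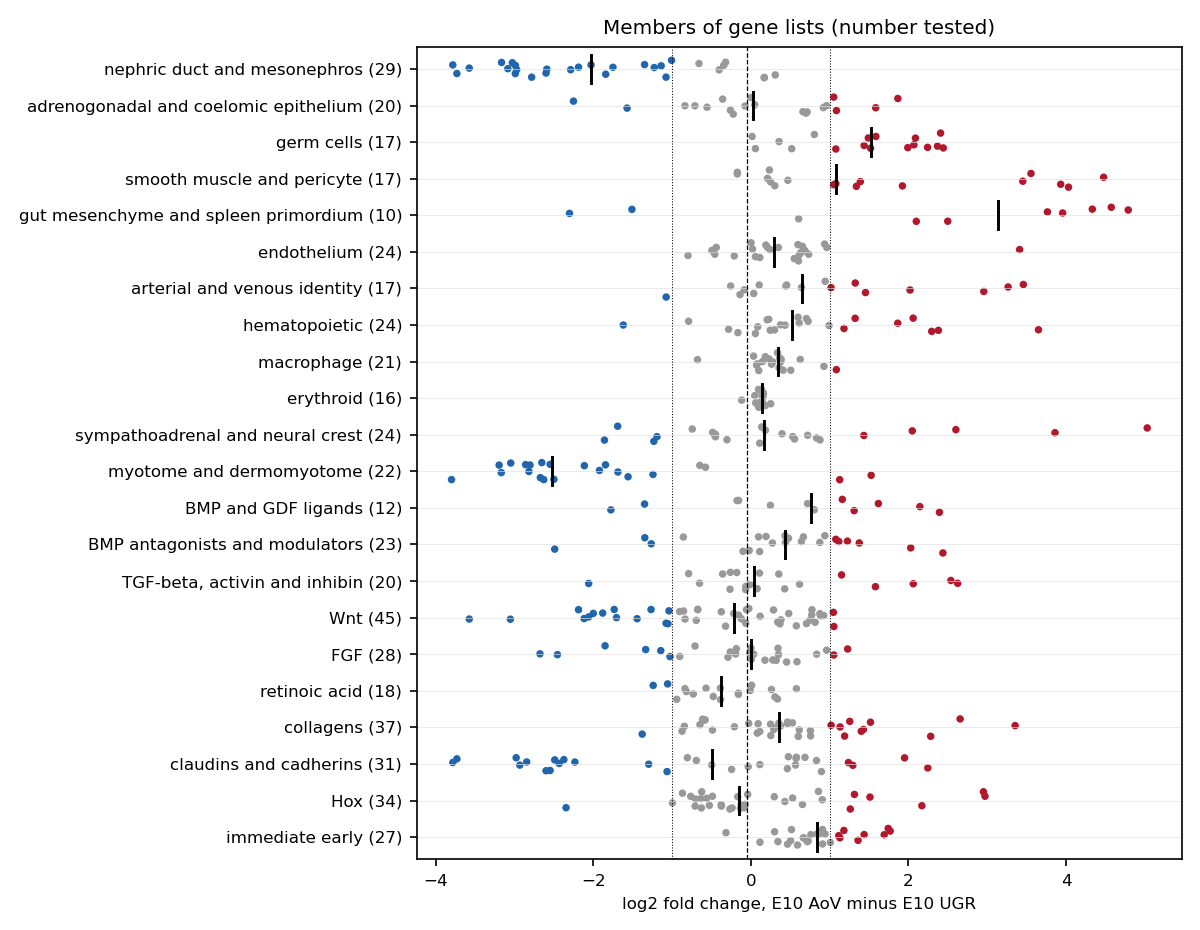
Log2 fold change, E10 AoV over E10 UGR, of every tested member of 22 gene lists, with called members colored red (higher) or blue (lower) and others grey. A black tick marks each list's median, the dashed line the median of all genes (-0.05) and the dotted lines a 2-fold change. Nephric and myotome members lie to the left, and germ cell, smooth muscle and gut mesenchyme members to the right.

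Of 24 general endothelial genes tested, 1 was called higher and 0 lower (median 0.30), against 3.88% and 3.74% of all genes tested. Without the fold limit 13 were higher and 3 lower, against 2274 and 3070 of all 17784 genes. With ridge replicate 1 left out 2 were called higher, and with ridge replicate 3 left out 1 was called lower. Cdh5, VE-cadherin, was at 217, 225 and 210 RPM in E10 AoV and at 136, 141 and 128 RPM in E10 UGR (log2 fold change 0.69 with SE 0.09 and adjusted p = 4.92e-05), under 2-fold. Kdr, the main VEGF receptor, was at 137, 141 and 121 RPM in E10 AoV and at 132, 143 and 123 RPM in E10 UGR, so the tissues overlapped (log2 fold change 0.00). The member called was Vwf, von Willebrand factor (chr6:125496792-125636697, plus strand), at 178, 204 and 188 RPM against 19.6, 19.9 and 14.3 RPM (log2 fold change 3.41 with SE 0.18 and adjusted p = 6.52e-09). Flt4, Emcn and Fli1 were lower without the fold limit (-0.49, -0.46 and -0.44).

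Arterial and venous genes were read apart from the endothelium at large. Of 13 arterial genes 7 were higher and 0 lower in E10 AoV (median 1.02), and of 4 venous genes 0 were higher and 1 was lower (median -0.02). Gja5, the gap junction protein connexin 40 of arteries (chr3:96708616-96881339, plus strand), was at 103, 113 and 116 RPM in E10 AoV and at 13.5, 11.4 and 9.64 RPM in E10 UGR (log2 fold change 3.27 with SE 0.17 and adjusted p = 6.84e-09), with an overlapping exon of Gpr89. Bmx, a tyrosine kinase of arterial endothelium, was at 4.51, 3.91 and 4.31 against 0.326, 0.308 and 0.253 RPM (log2 fold change 3.46 with SE 0.23 and adjusted p = 4.19e-08), and Dll4, the arterial Notch ligand, at 23.4, 23.5 and 22.1 against 5.99, 5.46 and 5.34 RPM (log2 fold change 2.02 with SE 0.08 and adjusted p = 6.49e-10). Gja4 rose by 2.96. Efnb2 lay at the fold limit (238, 225 and 229 against 122, 114 and 106 RPM, log2 fold change 1.02, and under it at 0.97 without ridge replicate 3 and 0.995 without E10 AoV replicate 1).

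Among the venous genes, Nr2f2, the nuclear receptor that sets venous identity, was at 409, 396 and 374 RPM against 371, 351 and 373 RPM and Ephb4 at 158, 163 and 143 against 163, 170 and 158 RPM, and neither was called, although both are also made by mesenchyme. Aplnr, the apelin receptor of veins and sprouting vessels, was lower, at 40.7, 43.9 and 29.9 against 73.6, 85.3 and 79.8 RPM (log2 fold change -1.07 with SE 0.11 and adjusted p = 3.90e-06, and -0.91 without E10 AoV replicate 3, under the fold limit).

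Of 24 hematopoietic genes, 7 were higher and 1 was lower in E10 AoV (median 0.52). Runx1, the factor required for blood cells to emerge from endothelium (chr16:92601712-92826311, minus strand), was at 22.1, 22.9 and 25.7 RPM in E10 AoV and at 5.15, 4.42 and 3.83 RPM in E10 UGR (log2 fold change 2.38 with SE 0.14 and adjusted p = 1.92e-08), with Gm16801 overlapping. Its target Gfi1, a repressor that silences the endothelial program, was at 3.92, 3.71 and 5.22 against 0.119, 0.329 and 0.338 RPM (log2 fold change 3.65 with SE 0.32 and adjusted p = 6.39e-07). The surface genes Procr and Cd44 were at 9.16, 9.87 and 10.7 against 1.93, 2.18 and 1.72 RPM (2.30) and 21.3, 22 and 23.7 against 5.18, 5.78 and 4.9 RPM (2.06), and Spn, which encodes CD43, had a log2 fold change of 1.86. Every ridge library was below every E10 AoV library for these 5 genes, but ranges did not overlap for 1354 of the 1356 called genes.

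Regulators of the same cells were not all on that side. Gata2, a zinc finger factor needed for hematopoietic stem cells and also expressed in the nephric region, was lower in E10 AoV at 21.8, 20.3 and 20.7 against 64.2, 67.5 and 61.8 RPM (log2 fold change -1.62 with SE 0.14 and adjusted p = 4.81e-07). Tal1, Lmo2 and Myb were not called (0.38, 0.21 and -0.16). Kit, the stem cell factor receptor, was at 60.1, 62.2 and 55.3 RPM against 28.9, 31.8 and 28.4 RPM and missed the fold limit by little (log2 fold change 0.99 with SE 0.07 and adjusted p = 1.13e-07), passing it at 1.04 without E10 AoV replicate 3 or without ridge replicate 2. Ptprc, which encodes the pan-leukocyte marker CD45, was at 3.76, 4.66 and 4.38 against 4.18, 4.09 and 3.97 RPM (log2 fold change 0.06).

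Macrophage genes were called for 1 of 21 members (median 0.34), against 7.62% of all genes tested. The gene called was Lyve1 (3.79, 3.79 and 3.59 against 1.84, 1.83 and 1.46 RPM, log2 fold change 1.09, or 0.98 without ridge replicate 3). The macrophage list summed to 117 to 136 RPM against 91 to 103 RPM. The defining receptor Csf1r was at 9.52, 11.5 and 10.3 against 9.27, 10.1 and 8.19 RPM and did not pass. Red cell genes gave 0 calls in 16 (median 0.14). Hbb-y, an embryonic beta-like globin that shares sequence with its neighbors, was at 2390, 4760 and 3810 RPM in E10 AoV and at 2440, 3850 and 3440 RPM in E10 UGR, with replicate 1 lowest and replicate 2 highest in both tissues. The part of red cells in other results was not tested.

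**Figure D4:**
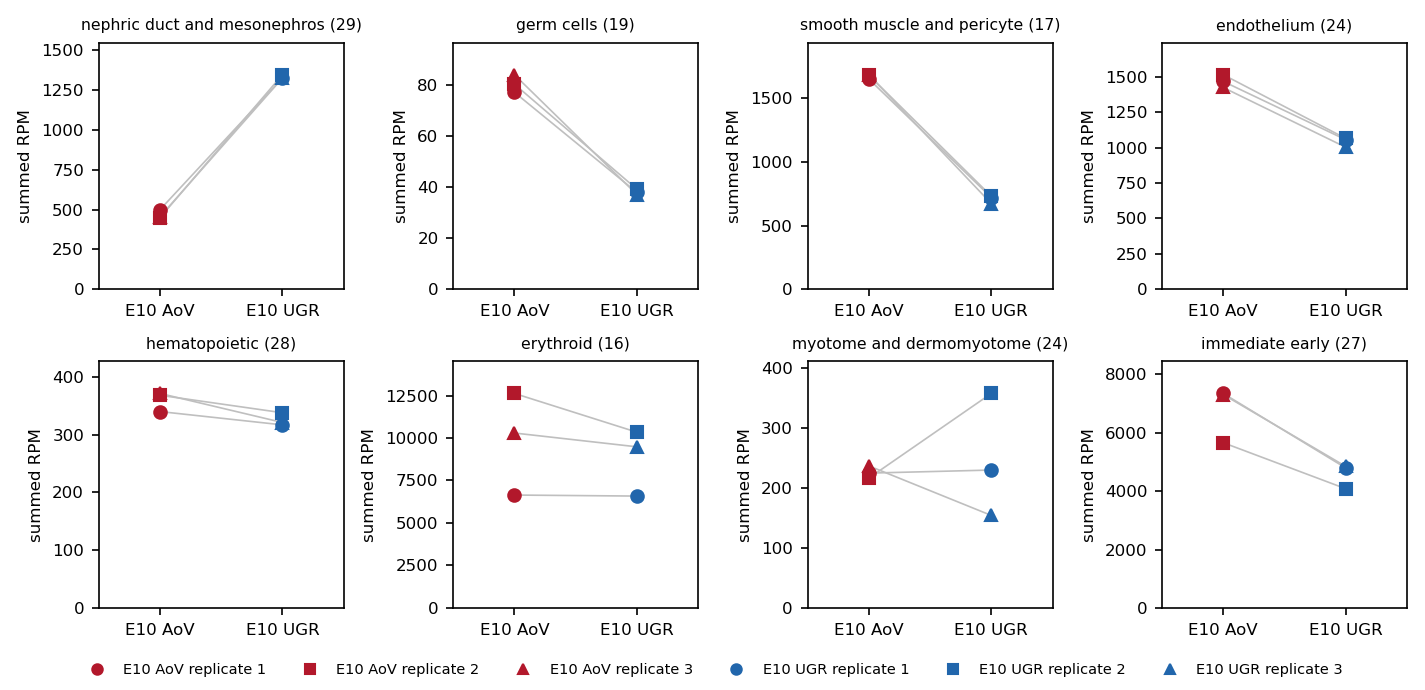
Summed RPM of the members of 8 marker lists in each library, from 0, with red points for E10 AoV, blue points for E10 UGR and grey lines joining libraries of the same replicate number. Nephric sums are higher in E10 UGR (1325 to 1346 against 449 to 499 RPM), smooth muscle and germ cell sums higher in E10 AoV, and red cell sums overlap, with both replicate 2 libraries highest.

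Skeletal muscle genes came with the ridges, but unevenly. Of 22 myotome and dermomyotome genes, 2 were higher and 18 lower in E10 AoV, with a median of -2.52. All 6 transcription factors tested were lower, among them Myod1, the muscle master regulator, at 0.208, 0.23 and 0.163 RPM in E10 AoV and at 2.61, 4.91 and 1.41 RPM in E10 UGR (log2 fold change -3.19 with SE 0.38 and adjusted p = 1.43e-05), and Pax3, the paired-box factor of muscle precursors, at 1.87, 0.742 and 1.3 against 10, 13.2 and 5.94 RPM (log2 fold change -2.82 with SE 0.32 and adjusted p = 9.68e-06). Replicate 2 was the highest of the E10 UGR libraries in all 22 genes and replicate 3 the lowest in 20, and the highest ridge library was at a median of 2.63 times the lowest. In E10 AoV the highest library was replicate 1 in 11 genes, replicate 2 in 6 and replicate 3 in 5. Summed levels overlapped, at 216 to 237 RPM in E10 AoV and 154 to 358 RPM in E10 UGR. Most reads in the E10 AoV sums came from Actc1 and Tnni1, the 2 higher members. In the E10 UGR sums most reads came from the other members. Actc1 was at 142, 136 and 156 against 54.1, 78 and 29.7 RPM (1.53). Tnni1 was at 39.9, 44.9 and 41.9 against 17.8, 23.7 and 16.9 RPM (1.13). Both genes are also expressed outside somitic muscle, in heart and smooth muscle precursors. How much muscle tissue each ridge pool contained was not tested.

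With ridge replicate 2 left out 17 of the muscle genes were called lower, and with replicate 3 left out 18 were. In the sclerotome list 2 of 14 were higher and 3 lower (median -0.29, and 5 lower without ridge replicate 3). Nkx3-2, a factor of both vertebral precursors and gut-associated mesenchyme, was at 4.07, 4.45 and 4.52 against 0.148, 0.185 and 0.0563 RPM (log2 fold change 4.32 with SE 0.21 and adjusted p = 3.31e-09), and Tbx18 rose by 1.74. Uncx and Meox1, genes of the somite, were lower at 5.55, 4.81 and 5.54 against 28.4, 26.7 and 28.8 RPM (-2.38) and 24.3, 20.5 and 25.5 against 79.8, 102 and 72.4 RPM (-1.84). The cartilage factors Sox9 and Pax1 were not called (0.79 and -0.96), although Pax1 was called lower without E10 AoV replicate 3 or ridge replicate 3 (-1.01 and -1.23). Limb and body wall genes were higher for 2 and lower for 2 of 10 (median -0.19). Alx4, a homeobox gene of anterior limb and body wall, was at 7.65, 5.99 and 5.8 against 49.4, 53.7 and 44.4 RPM (log2 fold change -2.91 with SE 0.16 and adjusted p = 8.06e-09), and Lmx1b was lower by the same rule (-1.95), while the limb initiation genes Tbx5 and Tbx4 were higher from low levels (2.0 and 1.55). Neural tube genes were near the level filter, with 5 of 13 tested, 0 higher and 2 lower (median -0.30).

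BMP signalling was read by role, since Bmp4 is known from the ventral side of the aorta. Bone morphogenetic proteins bind paired receptor kinases that phosphorylate SMAD proteins, and secreted antagonists hold the ligands off their receptors. Of 12 ligands 5 were higher and 2 lower in E10 AoV (median 0.76). Bmp5 was at 83.8, 86.6 and 97.3 RPM in E10 AoV and at 31.1, 27.1 and 28.7 RPM in E10 UGR (log2 fold change 1.62 with SE 0.10 and adjusted p = 2.69e-08), with Gm16662 overlapping, and Gdf6 at 19.4, 21.8 and 21.9 against 8.71, 10.8 and 8.65 RPM (log2 fold change 1.16 with SE 0.18 and adjusted p = 1.72e-04). Gdf2, the ligand BMP9 of endothelial receptors, and Gdf3 were higher from under 1 RPM (2.39 and 1.31), and Gdf10 was at 4.9, 5.83 and 3.49 against 0.652, 1.58 and 0.873 RPM (2.15).

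Bmp7, which the nephric duct makes, was lower, at 22.5, 18.2 and 18.3 RPM against 51.7, 49.4 and 48.9 RPM (log2 fold change -1.35 with SE 0.09 and adjusted p = 5.84e-08), and Gdf5, a joint and limb ligand, was lower from under 1 RPM (-1.78). Bmp4, made by the mesenchyme under the aorta, was at 88.4, 87.9 and 96.6 RPM in E10 AoV and at 52.2, 49 and 54.8 RPM in E10 UGR and did not overlap, but its change was under 2-fold (log2 fold change 0.81 with SE 0.14 and adjusted p = 5.86e-04). Bmp6 passed on p only (0.72), and Bmp2, Bmp3 and Bmp8b did not pass (0.25, -0.16 and -0.17). Bmp8a, Bmp10 and Gdf7 were below the level filter.

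Antagonists and modulators were higher in E10 AoV for 6 of 23 members and lower for 3 (median 0.44). Nog, noggin (chr11:89161952-89163873, minus strand), was at 10.2, 9.46 and 11.7 RPM in E10 AoV and at 2.13, 2.94 and 2.42 RPM in E10 UGR (log2 fold change 2.03 with SE 0.13 and adjusted p = 4.11e-08). Sost, sclerostin, which binds Wnt co-receptors as well as BMPs, was at 10, 10.1 and 12 against 1.87, 1.85 and 1.94 RPM (log2 fold change 2.44 with SE 0.10 and adjusted p = 6.97e-10), and Bmper, a chordin-like modulator, at 90.1, 90.5 and 93.5 against 38.3, 30.2 and 37.5 RPM (log2 fold change 1.38 with SE 0.18 and adjusted p = 3.83e-05). Fstl3 and Smoc2 were higher too (1.23 and 1.12), the first overlapped by Prss57. Smoc2 was at 0.99 without ridge replicate 3, under the fold limit. No library of E10 UGR reached the E10 AoV range in these 5 genes, but ranges did not overlap for 1354 of the 1356 called genes.

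The lower members were Sostdc1, at 0.675, 0.46 and 0.373 against 2.81, 3.58 and 3.29 RPM (log2 fold change -2.49 with SE 0.19 and adjusted p = 2.08e-07), Fst, the activin antagonist follistatin, at 6.25, 6.47 and 5.54 against 14.3, 14.4 and 15.5 RPM (log2 fold change -1.26 with SE 0.11 and adjusted p = 8.08e-07), and Vwc2 (-1.35). Sostdc1 and Sost are close relatives that changed in opposite directions. Passing on p alone were Chrd, Chrdl1, Chrdl2, Crim1, Smoc1, Bmp1 and Bambi, all toward E10 AoV with log2 fold changes of 0.48, 0.88, 0.94, 0.64, 0.44, 0.27 and 0.67, and Nbl1 toward the ridges (-0.86). Chrdl1 reached 1.11 without ridge replicate 2, and Chrdl2 reached 1.07 without E10 AoV replicate 2, 1.01 without ridge replicate 2 and 1.04 without ridge replicate 3, which made them calls. Fstl1 and Twsg1, which had the most reads of the list, were not called (0.11 and -0.02), nor were Grem1, Kcp, Dand5 and Tll1 (0.10, 0.43, 0.19 and -0.10).

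Receptors, SMADs and targets gave 1 higher and 1 lower of 17 (median 0.29). Smad6, an inhibitory SMAD that BMP signals induce, was at 91.1, 96.6 and 99.6 RPM in E10 AoV and at 50.9, 44.9 and 44.4 RPM in E10 UGR (log2 fold change 1.04 with SE 0.10 and adjusted p = 2.85e-06), and at 0.9998 without ridge replicate 3. Bmpr1b, a type I receptor of cartilage and gonads, was lower, at 6.8, 6.32 and 4.68 against 15.8, 15.1 and 13.5 RPM (log2 fold change -1.32 with SE 0.17 and adjusted p = 2.93e-05), and Bmpr1a was not called (289, 279 and 289 against 275, 269 and 260 RPM, log2 fold change 0.09). The target gene Id1 was at 191, 169 and 212 RPM in E10 AoV and at 125, 120 and 147 RPM in E10 UGR and did not pass the test (log2 fold change 0.54, adjusted p = 0.0778), and Id2 passed on p alone (0.46).

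In the TGF-beta and activin group 5 of 20 were higher and 1 was lower (median 0.03). Tgfb2, a ligand of vessel wall and heart mesenchyme (chr1:188447065-188529871, minus strand), was at 127, 128 and 125 RPM in E10 AoV and at 22, 23.4 and 16.6 RPM in E10 UGR (log2 fold change 2.63 with SE 0.13 and adjusted p = 5.31e-09), whereas Tgfb1 and Tgfb3 changed by less than 2-fold (0.43 and 0.35). Tgfbi, a TGF-beta target, was not called (-0.26). Inhba, the activin A subunit, was at 0.986, 0.639 and 0.722 RPM against 0, 0.0822 and 0.0845 RPM (2.54), with 0 reads in ridge replicate 1.

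Lefty2 and the receptor gene Acvr1c were higher (1.58 and 1.15), the former with reads that Lefty1 can share and the latter at 0.96 without E10 AoV replicate 2. Mstn, myostatin, was lower, at 0.726, 0.512 and 0.838 against 3.67, 4.46 and 1.89 RPM (log2 fold change -2.06 with SE 0.27 and adjusted p = 3.59e-05). Its ridge values followed the order of most muscle genes with replicate 2 highest, but how common that order was over all genes was not counted. Inhbb was at 10.2, 11.2 and 8.31 RPM against 16.8, 17.8 and 16.6 RPM and did not pass (adjusted p = 0.062), Gdf11 passed on p alone (-0.65), and Inha and Amh were not called (-0.36 and -0.18). The receptors Tgfbr1 and Tgfbr2 and the signal carriers Smad2 and Smad3 changed by at most 0.11 in size on the log2 scale (-0.06, 0.08, 0.11 and -0.07).

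**Figure D5:**
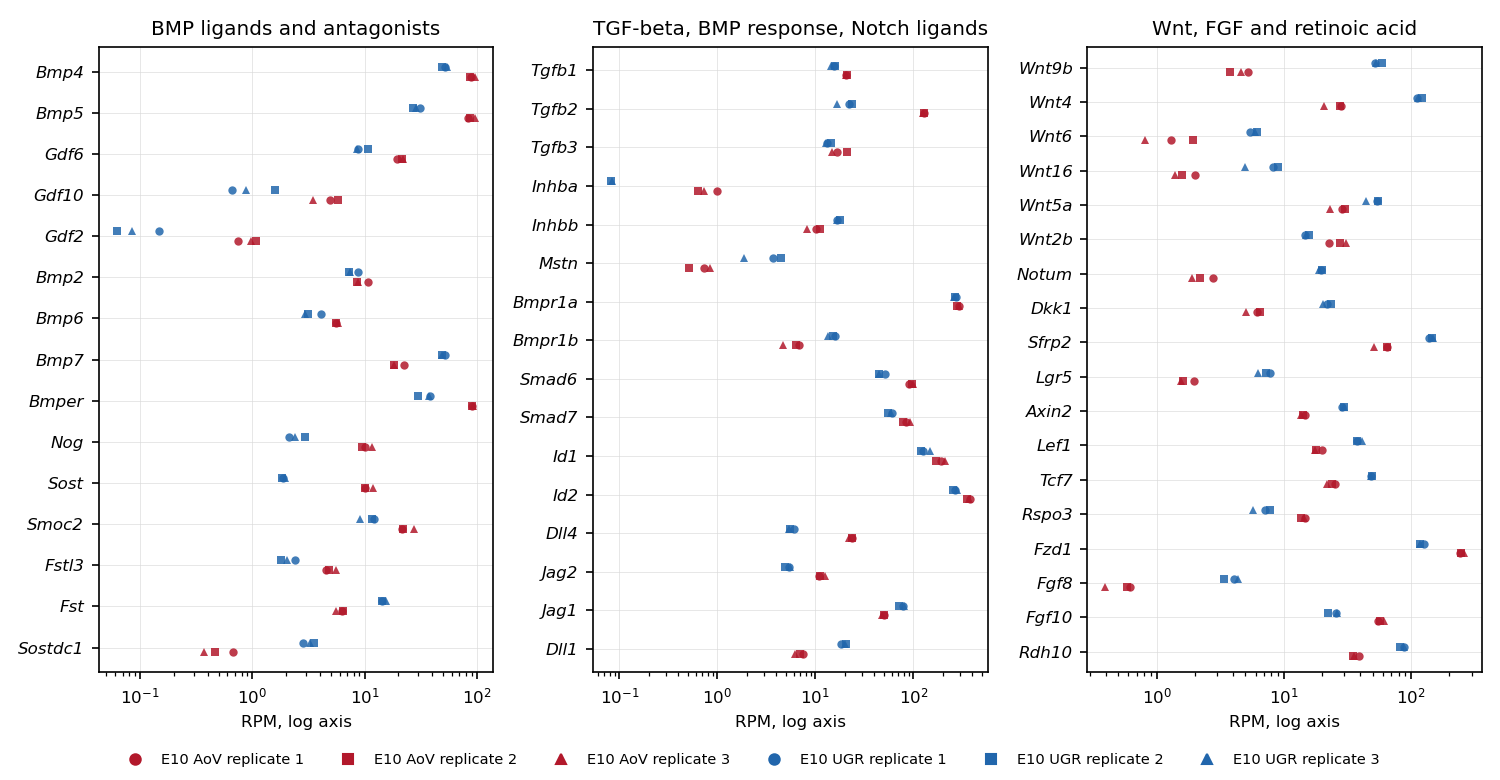
RPM of each library on a log axis for named members of the BMP, TGF-beta, Wnt and other signalling lists, red for E10 AoV and blue for E10 UGR, with a circle, square and triangle for replicates 1, 2 and 3. Inhba in ridge replicate 1 is at 0 and cannot be drawn on this axis. Tgfb2 and Sost lie clearly to the right in E10 AoV, and Wnt9b and Wnt4 clearly to the right in E10 UGR.

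Wnt genes were divided, with more calls toward the ridges. Of 45 tested, 2 were higher and 14 lower in E10 AoV and 29 were not called (median -0.22). On the adjusted p alone, with no fold limit, 15 were higher and 19 lower, against 2274 and 3070 of all 17784 genes. Wnt proteins act at short range through Frizzled receptors to stabilize beta-catenin. Among 12 ligands 0 were higher and 6 lower, comprising Wnt9b and Wnt4 above, Wnt6 at 1.3, 1.92 and 0.815 against 5.45, 6.15 and 5.97 RPM (-2.12), Wnt16 at 2.02, 1.59 and 1.4 against 8.24, 9.09 and 4.96 RPM (-2.06), and Wnt8b and Wnt7b (-1.70 and -1.44). Wnt2b and Wnt2 were on the other side without reaching 2-fold (0.82 and 0.77). Targets of the pathway were lower for 3 of 4 members, namely Axin2 at 14.8, 14.3 and 13.6 against 28.5, 29.6 and 29.9 RPM (log2 fold change -1.04 with SE 0.10 and adjusted p = 1.48e-06), Lef1 (-1.08) and Tcf7 (-1.05, and -0.99 without E10 AoV replicate 3, under the fold limit), and the target Nkd1 passed on p alone (-0.37).

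Secreted Wnt inhibitors were lower for 3 of 10. Notum, an enzyme that removes the lipid from Wnt proteins, was at 2.3 ± 0.447 RPM against 19.6 ± 0.5 RPM (SD, n = 3, log2 fold change -3.05 with SE 0.23 and adjusted p = 1.35e-07), with 2 overlapping genes. Dkk1 was at 6.17, 6.5 and 5.08 against 21.7, 23.7 and 20.5 RPM (-1.88) and Sfrp2 at 65, 64.9 and 51.3 against 138, 147 and 149 RPM (log2 fold change -1.27 with SE 0.10 and adjusted p = 2.47e-07). Sfrp1 stayed under 2-fold on the other side (0.37). Of the R-spondins, which amplify Wnt signals, Rspo3 was higher and Rspo2 lower (1.05, or 0.92 without ridge replicate 3, and -1.73), and their receptor Lgr5 was lower (-2.0). Of 15 receptors 1 was higher, Fzd1, at 242, 248 and 262 against 126, 119 and 117 RPM (log2 fold change 1.05 with SE 0.09 and adjusted p = 5.20e-07).

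Notch genes split by family member. Of 22 tested, 3 were higher and 3 lower (median -0.03). Beside Dll4 and its target Hey2 (22.5, 24.3 and 22.9 against 8.65, 7.83 and 8.76 RPM, log2 fold change 1.46), the ligand Jag2 was higher (1.12). The ligand Dll1, known from somites and neural tissue, was lower at 7.44, 6.94 and 6.16 against 18.4, 20.6 and 19.9 RPM (log2 fold change -1.51 with SE 0.18 and adjusted p = 1.5e-05), as were Hes5 and Dtx1 (-1.34 and -1.16). The receptor Notch1 and the target Hes1 were not called (-0.26 and -0.13), and Jag1 passed on p alone (-0.63).

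Hedgehog genes were called for 1 of 13 (median -0.02), against 7.62% of all genes tested. The gene called was the ligand Dhh of endothelium and peripheral nerve, at 3.79, 4.12 and 4.05 RPM against 1.39, 1.05 and 1.32 RPM (log2 fold change 1.60 with SE 0.19 and adjusted p = 1.12e-05). Ptch1, receptor and target of the pathway, was at 94.8, 85.9 and 83.3 against 89.4, 88.3 and 77.7 RPM and not called (0.05), and Gli1, a target gene too, was under 2-fold (0.60). Fibroblast growth factor genes were higher for 2 and lower for 6 of 28 (median 0.00), and with any 1 library left out 3 to 5 were lower (3 without E10 AoV replicate 2 or 3 or ridge replicate 1 or 2). Fgf10, the mesenchymal ligand of budding epithelia, was at 55.5, 56.9 and 61.6 against 25.6, 22.3 and 26.3 RPM (log2 fold change 1.23 with SE 0.13 and adjusted p = 3.29e-06), and Fgf9 rose by 1.05, or 0.94 without ridge replicate 2, under the fold limit. Fgf8 was lower, at 0.623, 0.588 and 0.396 against 4.03, 3.41 and 4.34 RPM (log2 fold change -2.68 with SE 0.26 and adjusted p = 1.60e-06). Fgf6 and Fgf4 and the receptor gene Fgfr4, all expressed in the myotome, were lower as well (-2.45, -1.33 and -1.85). The ridge values of Fgfr4, at 8.53, 9.15 and 7.8 RPM, lay close together, unlike those of most muscle genes. Fgf4 was at 0.356, 0.781 and 0.113 RPM in the ridges and at or under 3 reads in each E10 AoV library. Fgf4 was no longer called when any library other than ridge replicate 3 was left out, with log2 fold changes of -1.35 to -0.83. Counting the list again, 3 members were called lower without E10 AoV replicate 2 or 3 or without ridge replicate 1 or 2. The feedback targets Dusp6 and Spry1 were not called (0.45 and -0.71).

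Retinoic acid genes were lower for 2 of 18 and higher for 0 (median -0.38). Rdh10, the enzyme of the first oxidation of vitamin A, was at 38.8, 34.8 and 35.5 RPM in E10 AoV and at 87.7, 82.1 and 88 RPM in E10 UGR (log2 fold change -1.24 with SE 0.08 and adjusted p = 5.33e-08), and the binding protein gene Crabp1 at 53.5, 47.9 and 46.2 against 106, 109 and 92.3 RPM (log2 fold change -1.06 with SE 0.12 and adjusted p = 7.04e-06). Aldh1a2, which carries out the last step of synthesis, was at 234, 220 and 228 against 425, 391 and 402 RPM and passed on p without reaching 2-fold (log2 fold change -0.84 with SE 0.11 and adjusted p = 2.50e-05). Of the 18 genes 9 were lower on p alone, the 2 called included, against 3070 of all 17784 genes.

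Cytokines and growth factors with known effects on blood stem cells were higher for 5 and lower for 1 of 31 (median 0.24). Angpt2, a ligand of the Tie2 receptor from vessel walls, was at 31.5, 34.8 and 33.4 RPM in E10 AoV and at 6.7, 5.88 and 6.76 RPM in E10 UGR (log2 fold change 2.35 with SE 0.15 and adjusted p = 2.66e-08). Vegfc was at 20.9, 23.1 and 22.6 against 7.47, 6.91 and 5.63 RPM (log2 fold change 1.73 with SE 0.11 and adjusted p = 2.22e-08) and Hgf, hepatocyte growth factor, at 13.3, 15.1 and 12.4 against 5.33, 4.83 and 4.34 RPM (log2 fold change 1.47 with SE 0.16 and adjusted p = 6.87e-06). Pdgfd and Il1r1 were higher too (1.18 and 1.05). Cxcl12, the chemokine that holds stem cells in the marrow, was at 1030, 1050 and 1010 against 576, 519 and 559 RPM, just under 2-fold (log2 fold change 0.90 with SE 0.11 and adjusted p = 1.59e-05), and Kitl, stem cell factor, changed by 0.31. Epo, erythropoietin, was lower, at 0.219, 0.242 and 0.317 against 1.33, 1.07 and 1.2 RPM (log2 fold change -1.86 with SE 0.18 and adjusted p = 1.88e-06), with an exon of Gnb2 overlapping it. Igf2, a fetal growth factor, was at 4780, 4620 and 4600 against 4660, 4510 and 4200 RPM and was not called (0.07). Of 9 IGF-binding proteins and receptors, 0 were higher and 2 lower (median -0.03), Igfbp1 and Igfbp6, both under 1 RPM (-1.22 and -1.23, or -0.91 and -0.96 without E10 AoV replicate 3).

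Interferon-response genes were higher for 5 and lower for 1 of 23 (median 0.44). Iigp1, a GTPase against intracellular parasites, was at 28.9, 35 and 32.7 RPM in E10 AoV and at 2.42, 2.28 and 1.97 RPM in E10 UGR (log2 fold change 3.80 with SE 0.14 and adjusted p = 2.20e-10), and Ifi44, Oasl2, Ifitm3 and Irf5 had log2 fold changes of 2.08, 1.50, 1.28 and 1.0. Ifitm3 has near-identical relatives. Irf5 was at 0.995 without E10 AoV replicate 3, 0.997 without ridge replicate 1 and 0.95 without ridge replicate 2. Rsad2 was lower (-1.04), but at -0.84 without E10 AoV replicate 3, -0.98 without ridge replicate 1 and -0.995 without ridge replicate 2, each time no longer called. Isg15 and Irf7 were not called (0.85 and 0.22).

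Immediate early genes, which respond to handling of tissue within minutes, were higher in E10 AoV for 8 and lower for 0 of 27, with a median of 0.84. They summed to 5660 to 7348 RPM in E10 AoV and 4083 to 4847 RPM in E10 UGR, and replicate 2 was the lowest in both tissues. Atf3, a stress-induced factor, was at 213, 133 and 230 against 56.9, 46 and 62.7 RPM (log2 fold change 1.77 with SE 0.36 and adjusted p = 0.0015), and Nr4a1 at 116, 80.4 and 95.7 against 41, 33.3 and 38.4 RPM (log2 fold change 1.36 with SE 0.26 and adjusted p = 0.00104). The members with the most reads, Jun, Fos and Egr1, did not pass (0.30, 0.67 and 0.59). Their part in the other results was not tested. Heat shock genes were called for 1 of 9 (median 0.00), Hspb1 (1.12, or 0.98 without ridge replicate 3), and Hspa1a was not called (19.4, 17.4 and 13.9 against 11.9, 13 and 9.67 RPM).

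Hox genes, which record position along the body axis, were higher for 6 and lower for 1 of 34 (median -0.15). The higher genes were all of the posterior groups. Hoxa11 was at 5, 3.27 and 3.29 RPM in E10 AoV and at 0.612, 0.295 and 0.329 RPM in E10 UGR (log2 fold change 2.97 with SE 0.23 and adjusted p = 2.07e-07), Hoxd11 at 7.11, 4.53 and 3.19 against 0.741, 0.411 and 0.451 RPM (log2 fold change 2.95 with SE 0.36 and adjusted p = 1.83e-05), and Hoxd10 at 14.3, 14.8 and 11.4 against 4, 2.57 and 2.37 RPM (log2 fold change 2.17 with SE 0.22 and adjusted p = 2.37e-06). The antisense transcript Hoxa11as overlaps Hoxa11, and Gm20440 overlaps Hoxd10 and Hoxd11. Hoxa10, Hoxd12 and Hoxd13 had log2 fold changes of 1.26, 1.31 and 1.51, and Hoxd13 no longer passed the adjusted p without E10 AoV replicate 1 (0.86) or ridge replicate 3 (1.31). Genes of the middle groups were lower on p without being called, such as Hoxb8 at 33.6, 28.9 and 30.2 against 61.8, 59.1 and 63.9 RPM (-1.0, past the limit at -1.06 without E10 AoV replicate 1 and -1.03 without ridge replicate 2) and Hoxc8 (-0.87), and Hoxd1 was the lower call (1.17, 1.02 and 0.955 against 6.34, 5.94 and 4.96 RPM, log2 fold change -2.35). Hoxb9, which took the most reads of the list, was not called (-0.37). Where along the trunk each tissue was cut was not tested.

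Axon guidance genes, many of which also steer vessels and migrating cells, were higher for 8 and lower for 2 of 50 (median 0.06). Sema3g, a semaphorin of arteries, was at 33.6, 37.9 and 37 RPM in E10 AoV and at 7.64, 7.61 and 6.87 RPM in E10 UGR (log2 fold change 2.28 with SE 0.13 and adjusted p = 1.17e-08), and the netrin receptors Unc5b and Unc5c at 240, 249 and 248 against 99.7, 95.6 and 98.6 RPM (1.33) and 207, 236 and 175 against 80.2, 85.1 and 75.9 RPM (1.35). Epha3 and Slit1 were lower (-1.73 and -1.65). The ridge values of Epha3 were 40.6, 55.1 and 31 RPM, in the order of most muscle genes, but a link to muscle was not tested. In the renin-angiotensin list 2 of 5 were higher (median 0.54), among them Ace, the angiotensin-converting enzyme, at 4.31, 4.84 and 4.81 against 0.887, 0.798 and 0.897 RPM (2.31).

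Genes of cell division gave 0 higher and 2 lower of 15 (median -0.05), against 3.88% higher and 3.74% lower of all genes tested. The proliferation genes Mki67, Top2a and Pcna changed by at most 0.07 in size (0.06, -0.03 and -0.07). Ccnd1, cyclin D1, was at 154, 142 and 148 RPM in E10 AoV and at 308, 306 and 319 RPM in E10 UGR (log2 fold change -1.07 with SE 0.07 and adjusted p = 4.63e-08), the most reads of any gene lower in E10 AoV, with an exon of Oraov1 overlapping it. The cyclin-dependent kinase inhibitor Cdkn1a was lower as well, at 6.33, 5.19 and 5.17 against 18, 23.9 and 11.9 RPM (log2 fold change -1.62 with SE 0.20 and adjusted p = 1.63e-05). Its ridge values had the order of most muscle genes, with replicate 2 highest and replicate 3 lowest. How common this order was over all genes was not counted, and a link to muscle was not tested. Dach1, a repressor of eye and limb development, was at 40.1, 35.9 and 28.6 against 113, 122 and 109 RPM (log2 fold change -1.73 with SE 0.11 and adjusted p = 3.07e-08).

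The 10 secreted factors that the study took forward as candidates were chosen on the E10 AoV samples among others and are not independent of them. Here 3 were higher and 0 lower in E10 AoV (median 0.69), namely Bmper and Gdf3 above and Nell1, a secreted protein of bone and cartilage, at 15, 16 and 15 RPM against 4.81, 4.06 and 5.12 RPM (log2 fold change 1.70 with SE 0.19 and adjusted p = 9.36e-06). Ibsp, Igfbp3 and Cxcl10 were not called (-0.02, -0.15 and -0.26).

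Some genes were seen in 1 tissue and did not exceed 3 reads in any library of the other. Among the called genes 16 were of this kind on the E10 AoV side and 13 on the E10 UGR side, and their folds are lower bounds against 3 reads. The transcript AC124170.1 was at 2.91, 2.89 and 2.42 RPM in E10 AoV and at 0, 0.0206 and 0.0563 RPM in E10 UGR, at least 35.0-fold higher, and Ralyl, an RNA-binding protein gene, at 1.82, 2.43 and 2.47 against 0.0593, 0.0617 and 0.0563 RPM, at least 28.6-fold higher. Nxph2, a neurexin ligand, had 0 reads in all 3 ridge libraries and 1.32, 1.28 and 1.51 RPM in E10 AoV, at least 17.5-fold higher. Nkx2-5, the cardiac and spleen factor, was at 0.882, 0.665 and 0.233 against 0.0148, 0.0206 and 0 RPM, at least 7.57-fold higher. On the other side Ehf, an epithelial ETS factor, was at 0.0778, 0.0512 and 0 against 0.948, 1.03 and 0.929 RPM, at least 13-fold lower, and Chrnd, a subunit of the muscle acetylcholine receptor, at 0.0519, 0.0256 and 0.0466 against 0.741, 1.05 and 0.422 RPM, at least 9.86-fold lower.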

How the data were processed

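RNA-seq was carried out on total RNA from pools of dissected AGM tissue, with 5 groups of 3 libraries. The authors aligned the reads to NCBIM37 with TopHat and Bowtie 0.12.3, shared out ambiguous reads in fractions by the number of unique reads of each gene, and deposited values in RPM (reads per 1000000 reads) per gene, rounded to 3 significant digits. Genes with close copies are therefore uncertain. Gene positions are given on NCBIM37. The library kit does not mark strand, so genes with overlapping exons cannot be told apart. The 12 deposited columns of the authors' own comparisons (log2 fold changes and adjusted p-values) were not used. The table holds no counts, and because 52.3 to 57.3% of low values were whole multiples of the value of 1 read, whole reads were not recovered and no count model was run. Depth was inferred from the steps between low values.

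Values were tested as log2(RPM + 0.1), after a filter of 0.5 RPM in at least 1 of the 6 libraries, with limma 3.58.1 in R 4.3.3. The model had 1 mean per group over all 15 libraries, which shared an estimate of the spread, and a trend of variance on level. P-values were adjusted by Benjamini-Hochberg over all 17784 genes. The replicates are pools from 3 separate experiments, and p-values measure the spread between these pools. With 3 libraries against 3, an exact permutation test of a single gene cannot go below p = 0.1. The code was tested on simulated data. Summaries used pandas 2.3.3 and NumPy 2.4.6 in Python 3.11.15, and plots matplotlib 3.10.9.

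The comparison and the gene lists were chosen with earlier results of these data known. Genes were named by rule: the 15 largest changes in each direction among non-overlapping calls with at least 5 RPM, the 5 calls in each direction with the highest RPM, for each list its 4 largest calls and its 2 members of highest RPM, both overall and among those not called, and all BMP and TGF-beta members. Further members were named after their values had been seen, and some members are not reported here. Of 859 list entries 854 were found in the table by name. The library numbers come from the labels. Deviations from the group means of same-numbered E10 AoV and E10 UGR libraries correlated at 0.113, 0.195 and 0.149, and those of other pairs at -0.134 to -0.0219. Deviations cancel within a group, which pulls the other pairs negative where same-numbered pairs are positive, so the negative values are not separate evidence of pairing. The numbers were treated as pairing the libraries in the replicate block given below. RefSeq promoters matched 62.9% of the tested genes, so the motif shares computed for changed genes are not reported. Alternatives were another pseudocount, filter, scaling, model, fold rule and each library left out.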

Additional observations from a re-analysis of the deposited data

How the results depend on the processing

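Of 294 reported genes tested, 194 were called. Of these, 104 remained called under every alternative, 145 under every alternative with the same call rule, and 0 changed direction. Raising the pseudocount to 1 RPM left 735 calls (380 up and 355 down), and 42 of the 194 lost theirs. Testing against a 2-fold change itself left 536 genes (259 higher and 277 lower), 80 of the 194 losing their call, and dropping the fold limit gave 5344 (2274 higher and 3070 lower). The low-level genes are the ones that a larger pseudocount removes by its construction. The other alternatives were within 1.5 times of 1356 genes: 942 with a pseudocount of 0.5 RPM, 1521 with no level filter, 1047 with 1 RPM in at least 3 libraries, 1359 and 1461 with median-ratio and quantile scaling, 1358 with the 6 libraries alone and 1352 without the variance trend. With each library left out in turn, 1311 to 1375 genes were called (655 to 696 higher and 615 to 689 lower), and 24 reported genes changed their call (19 lost it), as given with their values above. With the replicate block 1357 genes were called (691 higher and 666 lower), 1 gained and 0 lost, and no other call changed. Depth limits statements to genes above 0.0617 to 0.0889 RPM, the level of 3 reads.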
